A study of Mus musculus with 4 samples.

Results

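A set of 5 genes for proteins of the leukocyte surface, *Cd52*, *Cd37*, *Cd53*, *Cd48* and *Cd47*, was followed by symbol in single-cell RNA sequencing data of mouse liver mononuclear cells, out of 31053 genes in the deposited tables. The question was whether the lack of *Cd52* in some lymphocytes after TCDD extended to the other 4 genes. *Cd52* was singled out because earlier results of these same data showed it low in those cells, so its own levels are given as a description. The cells came from livers of C57BL/6 mice of 8 to 10 weeks, and each of 4 conditions was 1 library. The Naïve library came from mice without ConA. The other 3 came from mice given concanavalin A (ConA), a plant lectin that activates T cells and causes hepatitis, together with vehicle (ConA+Veh), with the dioxin TCDD (ConA+TCDD) or with FICZ (ConA+FICZ). The study's methods place the collection of cells 24 hours after ConA and do not describe the ConA+FICZ library, which is known here from its labels and files alone. TCDD and FICZ are both ligands of the aryl hydrocarbon receptor (AhR), a transcription factor that a ligand activates. How many mice were behind a library is not given in the sources used here. With 1 library per condition no test between conditions was possible, and every interval below is a 95% interval that covers counting error only.

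The proteins are of several families. CD52 is a very short peptide that is held in the membrane by a glycosylphosphatidylinositol (GPI) anchor and carries a large sugar chain. It is abundant on mature lymphocytes and is the target of the antibody alemtuzumab. CD48, a ligand of CD2 and of the NK cell receptor 2B4, is GPI-anchored too and belongs to the SLAM family. CD37 and CD53 are tetraspanins, which span the membrane and gather other receptors into domains, and both are largely restricted to leukocytes. CD47 is found on nearly all cells, red cells included, and tells phagocytes through the receptor SIRPα not to engulf the cell.

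The coding sequence of *Cd52* is shown because the whole protein is so small. It takes up 225 of the 514 bases of its GENCODE M21 transcript and encodes 74 residues, with capitals for the start and stop codons.
Cd52 coding sequence: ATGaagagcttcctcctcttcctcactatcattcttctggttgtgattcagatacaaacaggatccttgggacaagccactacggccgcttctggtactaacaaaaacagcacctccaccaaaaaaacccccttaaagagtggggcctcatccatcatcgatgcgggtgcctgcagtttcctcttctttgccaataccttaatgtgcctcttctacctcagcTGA

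Promoters are shown because TCDD and FICZ act through AhR, whose core motif is GCGTG. A promoter here is the 250 bases before the RefSeq start (GRCm38.p6), printed on the gene's strand. Capitals mark GCGTG or, for a match on the other strand, CACGC. The RefSeq table held 4 of the 5 genes, all but *Cd52*. The promoters of *Cd53* (chr3:106790150-106790399, minus strand), *Cd48* (chr1:171681742-171681991, plus strand) and *Cd47* (chr16:49855404-49855653, plus strand) read as follows.
Cd53: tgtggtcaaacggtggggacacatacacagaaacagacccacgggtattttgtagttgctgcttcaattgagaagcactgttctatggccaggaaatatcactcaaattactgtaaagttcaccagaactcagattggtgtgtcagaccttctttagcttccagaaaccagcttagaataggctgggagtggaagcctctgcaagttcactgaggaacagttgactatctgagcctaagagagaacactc
Cd48: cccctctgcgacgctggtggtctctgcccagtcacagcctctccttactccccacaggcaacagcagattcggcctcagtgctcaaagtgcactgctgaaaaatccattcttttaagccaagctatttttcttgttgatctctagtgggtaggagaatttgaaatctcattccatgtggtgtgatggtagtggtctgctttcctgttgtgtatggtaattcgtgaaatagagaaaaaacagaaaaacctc
Cd47: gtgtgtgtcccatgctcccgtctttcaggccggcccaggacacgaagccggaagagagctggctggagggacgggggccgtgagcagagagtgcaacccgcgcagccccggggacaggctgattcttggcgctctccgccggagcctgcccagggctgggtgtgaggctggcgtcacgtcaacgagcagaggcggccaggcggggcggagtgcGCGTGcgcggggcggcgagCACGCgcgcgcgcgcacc
The *Cd47* promoter held 1 match on each strand, near its 3′ end, and those of *Cd53*, *Cd48* and *Cd37* held none. Of all 32851 promoters in the table, 28.2% had a match on either strand, so these counts describe the letters alone. In the annotation (GENCODE M21, GRCm38) all 5 genes were protein coding. *Cd52* lay at chr4:134082448-134095082 and *Cd37* at chr7:45233632-45239115, both on the minus strand, and each overlapped a gene of the opposite strand, *Crybg2* and *Tead2* respectively. Whether the counting used strand is not stated in the sources used here, so part of their counts could belong to those neighbours. *Cd53* was at chr3:106759921-106790149, *Cd48* at chr1:171682009-171705258 and *Cd47* at chr16:49800533-49915010. *Cd48* overlapped *Gm37010*, a gene of the same strand.

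The libraries held between 1880 and 2779 cells, with medians of 2161 to 3984 unique molecular identifiers (UMIs, single counted RNA molecules) per cell, and Naïve was the shallowest. Any pair of libraries shared between 4 and 15 cell barcodes. Each cell was placed by lists of marker genes that hold none of the 5 genes, and is called "like" a cell type for that reason. A cell went to the list of which it held the most markers, if there were at least 2 and at least 2 more than in any other list. These limits were set after the data had been seen. B-like, T-like and NK-like cells held a median of 5 to 7 markers of their own list and 0 or 1 of the next. Together these lymphocyte-like cells numbered 1727 in Naïve, 1894 in ConA+Veh, 1306 in ConA+TCDD and 1555 in ConA+FICZ. In the same order, 172, 477, 423 and 342 cells passed no gate and were left out. A level is the number of UMIs of the gene divided by all UMIs of the cells of that type and scaled to counts per 1000000 (CPM).

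*Cd52* was found in every lymphocyte-like and myeloid type and was low or absent in the others. In NK-like cells its level was 2690 CPM in Naïve, 3036 in ConA+Veh, 2278 in ConA+TCDD and 3108 in ConA+FICZ. Neutrophil-like cells held 2991, 2712, 2038 and 3064 CPM and were the other type at the top. Below them came B-like cells with 1836, 2393, 1872 and 2108 CPM, mononuclear phagocyte-like cells with 1791, 1936, 1464 and 1716 CPM and T-like cells with 1768, 1864, 1258 and 1553 CPM. The order of NK-like and neutrophil-like cells could not be told from their intervals except in ConA+Veh, where NK-like cells were higher, and in ConA+TCDD the interval of neutrophil-like cells also met that of B-like cells. Plasmacytoid dendritic-like cells, antiviral interferon producers of which each library held only 11 to 20, were lower at 359 to 1087 CPM. In Naïve their interval (857 to 1361) overlapped that of T-like cells with *Cd8* and no *Cd4* UMI (1277 to 1453). Endothelial-like and hepatocyte-like cells, which should lack *Cd52*, serve as a measure of RNA floating free. Endothelial-like cells showed no *Cd52* UMI in Naïve, ConA+TCDD and ConA+FICZ and 15 UMIs (62.1 CPM) in the 60 cells of ConA+Veh.

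*Cd37* was highest in B-like cells in every library. B-like cells held 1321 CPM in Naïve, 737 in ConA+Veh, 546 in ConA+TCDD and 663 in ConA+FICZ, well above T-like cells with 252, 100.1, 63.9 and 99.7 CPM. NK-like cells were between them with 425, 390, 277 and 350 CPM. The intervals of NK-like cells overlapped those of the few plasmacytoid dendritic-like cells in every library, and in ConA+TCDD and ConA+FICZ those of B-like cells did so too. Mononuclear phagocyte-like cells had little, 107, 33.6, 38.5 and 30.7 CPM.

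*Cd53* and *Cd48* set other types apart. *Cd53* was highest in neutrophil-like cells, with 558, 344, 475 and 450 CPM in the same order of libraries, and next in NK-like cells, whose intervals overlapped theirs in ConA+Veh and ConA+TCDD. *Cd48* was 157, 144, 147 and 113 CPM in NK-like cells and 139, 110, 81.0 and 97.3 CPM in T-like cells, with intervals apart in ConA+Veh and ConA+TCDD. It was lower in B-like cells (76.1, 74.0, 64.0 and 64.0 CPM). The few plasmacytoid dendritic-like cells held 129, 212, 172 and 246 CPM of *Cd48*, with intervals that overlapped those of NK-like cells in every library. Mononuclear phagocyte-like cells held 119, 129, 103 and 126 CPM. Neutrophil-like cells were almost without *Cd48*: there was no UMI in the 24 Naïve cells, and 34.7, 33.4 and 16.4 CPM in the libraries after ConA. The interval of neutrophil-like cells stood below those of T-like and NK-like cells, except that in ConA+TCDD it reached 78.0 CPM and overlapped those of T-like and B-like cells.

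*Cd47* had a different order, with its highest levels outside the lymphocytes. Endothelial-like cells held 1111, 771, 1166 and 961 CPM and plasmacytoid dendritic-like cells 758, 1076, 961 and 811 CPM in the 4 libraries, and the intervals of these types overlapped in each library. Among lymphocyte-like cells, NK-like cells were highest with 400, 594, 532 and 505 CPM. B-like cells followed with 313, 412, 324 and 362 CPM and T-like cells with 258, 259, 193 and 194 CPM. Erythroid-like cells held 1437 CPM (1194 to 1714) in the 49 cells of ConA+TCDD and 407 CPM (237 to 652) in the 30 cells of ConA+Veh, and the other libraries had too few such cells to compare.

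**Figure D1:**
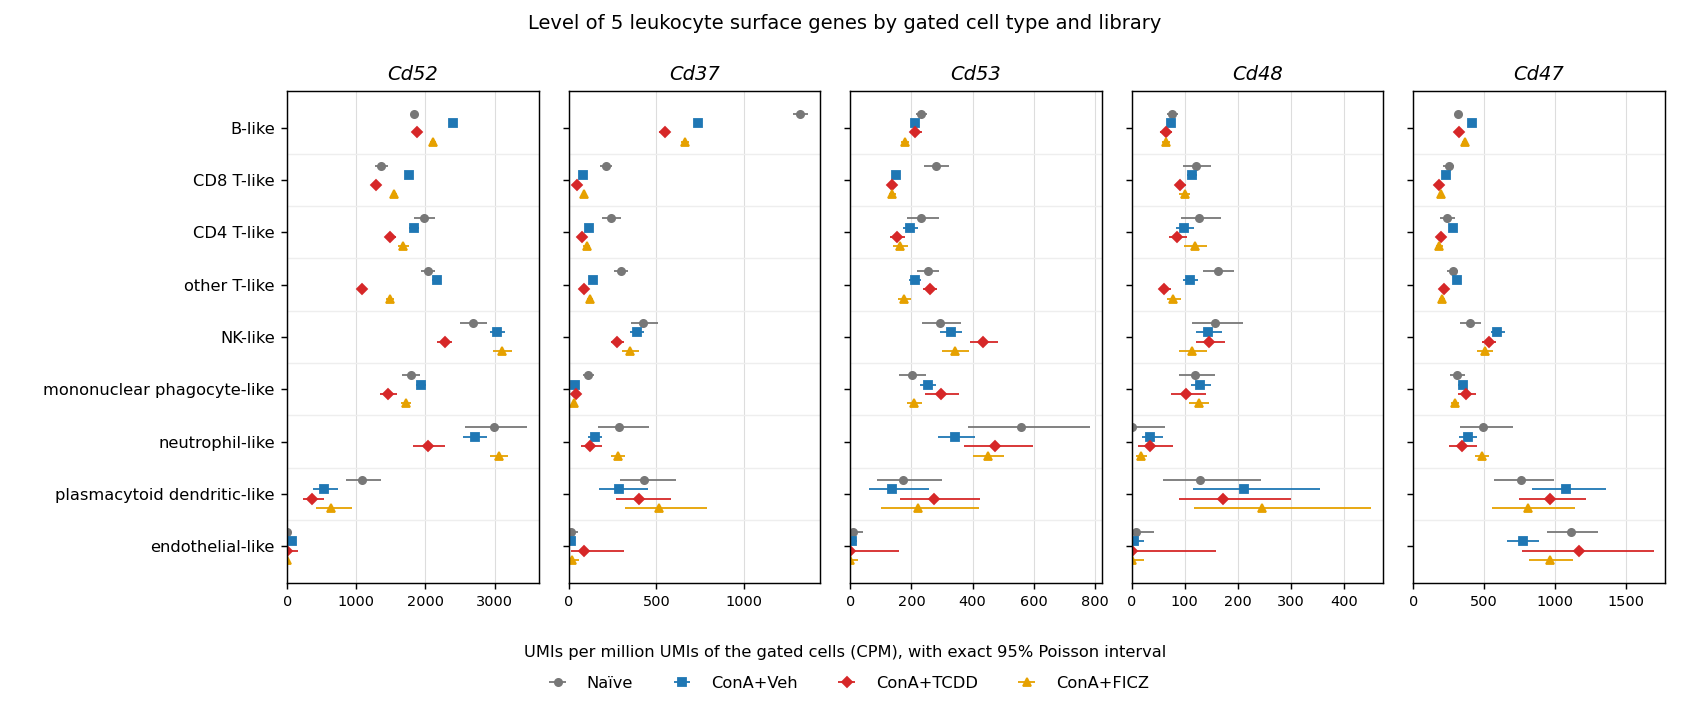
Level of each gene (CPM, x axis, starting at 0) in 9 gated cell types (y axis, with T-like cells shown as CD8, CD4 and other) for the 4 libraries (colours), with exact 95% Poisson intervals. *Cd37* stands out in B-like cells, *Cd47* in plasmacytoid dendritic-like and endothelial-like cells, and the ConA+TCDD points of *Cd52* lie to the left of ConA+Veh in all lymphocyte-like types.

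Over the 36 points given by types of at least 20 cells in each library, the genes whose level varied most like that of *Cd52* were *Rac2* (Pearson r = 0.96), a GTPase of blood cells, *Coro1a* (0.96), which binds cortical actin, *Ptprc* (0.95), which encodes CD45, *Cytip* (0.95) and *Fam49b* (0.94). This is a description over 2974 genes on the scale log2(CPM + 10), whose points share libraries. *Cd53* was rank 10 with r = 0.91, *Cd48* rank 89 with r = 0.76 and *Cd37* rank 99 with r = 0.75. *Cd47* had r = -0.18. The least alike were *Cyb5a* (-0.86), *Mt2* (-0.79), a metallothionein, and *Tmem256* (-0.77).

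Between Naïve and ConA+Veh, *Cd37* differed most. Its level over all lymphocyte-like cells was 869 CPM (842 to 895) in Naïve and 336 CPM (326 to 345) in ConA+Veh, a log2 ratio of -1.37 (-1.43 to -1.31). B-like cells were 1096 of the 1727 cells in Naïve and 847 of the 1894 in ConA+Veh, so the mixture of types differed too. It was the only one of the 5 genes past a 2-fold difference over all lymphocyte-like cells, and 16.2% of the 9933 genes with at least 50 UMIs were lower and 9.12% higher by that much in the same comparison. Within types *Cd37* was lower in T-like cells (log2 ratio -1.33) and, by less than 2-fold, in B-like cells (-0.84), and its ratio in NK-like cells was -0.12 (-0.42 to 0.18). *Cd52* was higher in ConA+Veh by 0.19 on the log2 scale and *Cd47* by 0.16, *Cd53* was lower by 0.33, and the interval of *Cd48* included 0. All genes together had a median log2 ratio of -0.20 in this comparison, so the values of *Cd53* and *Cd48* are close to the bulk of genes.

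In ConA+TCDD against ConA+Veh, 4 of the 5 genes were lower over all lymphocyte-like cells. *Cd52* measured 1489 CPM (1464 to 1513) against 2122 CPM (2098 to 2146), a log2 ratio of -0.51 (-0.54 to -0.48), with 1862 CPM in Naïve and 1850 CPM in ConA+FICZ. The ConA+TCDD level was thus the lowest of the 4 libraries. *Cd37* measured 196 CPM against 336 CPM, a log2 ratio of -0.78 (-0.86 to -0.70). *Cd48* measured 82.5 CPM against 100.2 CPM (-0.28, from -0.41 to -0.15). *Cd47* measured 252 CPM against 333 CPM (-0.40, from -0.47 to -0.33). *Cd53*, the other tetraspanin, measured 207 CPM against 195 CPM, and its log2 ratio of 0.08 was within counting error (-0.00226 to 0.17) and crossed 0 with other scalings. None of the 5 was past 2-fold, while 2.06% of 10038 genes were lower and 0.538% were higher by that much.

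Part of the *Cd37* value followed the mixture of cells, since 847 of the ConA+Veh and 422 of the ConA+TCDD lymphocyte-like cells were B-like, the cells that hold most *Cd37*. Within types its log2 ratio was -0.43 (-0.53 to -0.34) in B-like, -0.65 (-0.82 to -0.48) in T-like and -0.49 (-0.74 to -0.25) in NK-like cells. *Cd52* was lower in each of them as well, with log2 ratios of -0.35 in B-like, -0.57 in T-like and -0.41 in NK-like cells. *Cd47* was lower in B-like (-0.35) and T-like cells (-0.42), and its interval in NK-like cells reached 0 (-0.16, from -0.34 to 0.03). *Cd48* was lower in T-like cells (-0.44, from -0.60 to -0.29), whereas B-like cells (-0.21, from -0.50 to 0.07) and NK-like cells (0.02, from -0.34 to 0.39) gave no difference beyond counting error. *Cd53* was higher in NK-like cells alone of the 3 types (0.40, from 0.18 to 0.63), with 435 against 329 CPM. None of the 5 was past 2-fold in any of these types. At least 2-fold lower were 1.81% of the genes in B-like, 1.12% in T-like and 1.33% in NK-like cells, and 0.627, 0.419 and 0.363% were higher. Whether these ratios differ between cell types was not tested.

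The T-like cells were not alike. T-like cells with a UMI of *Cd8a* or *Cd8b1* and none of *Cd4* held 1755 CPM of *Cd52* in the ConA+Veh library and 1279 CPM in the ConA+TCDD library, and those with *Cd4* and no *Cd8* gene showed 1839 and 1493 CPM. The remaining T-like cells, with no UMI of these genes or with both kinds, went from 2161 to 1084 CPM, a log2 ratio of -0.995 (-1.07 to -0.92). In these remaining cells *Cd48* was lower as well (-0.83, from -1.17 to -0.50) and *Cd53* higher (0.30, from 0.11 to 0.49).

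Outside the lymphocytes, *Cd52* was lower in ConA+TCDD than in ConA+Veh also in mononuclear phagocyte-like (-0.40, from -0.53 to -0.27) and neutrophil-like cells (-0.41, from -0.60 to -0.23). ConA+TCDD held only 33 and 48 of these cells, so differences of the other 4 genes could have been missed. Of the 8 ratios of those genes, the interval left 0 out only for *Cd53* in neutrophil-like cells (0.46, from 0.03 to 0.89). The share of all genes with such an interval was not counted in these types.

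ConA+FICZ differed less from ConA+Veh in *Cd52*, *Cd37* and *Cd47* than ConA+TCDD did, and more in *Cd53*. Over lymphocyte-like cells the log2 ratio of *Cd52* was -0.20 (-0.22 to -0.17), that of *Cd53* -0.18, of *Cd48* -0.23 and of *Cd47* -0.28, and *Cd37* did not differ beyond counting error (-0.04, from -0.10 to 0.02). None of the 5 was past 2-fold, where 1.57% of the genes were lower and 0.915% higher by that much. The mixture of types differed too, since 799 of 1555 cells were B-like in ConA+FICZ and 847 of 1894 in ConA+Veh. Within B-like cells *Cd37* was 663 CPM (639 to 687) in ConA+FICZ and 737 CPM (714 to 762) in ConA+Veh. In NK-like, CD8, CD4 and other T-like cells its intervals overlapped between these libraries. Set directly against ConA+FICZ, ConA+TCDD was lower in *Cd52* by 0.31 and in *Cd37* by 0.74 on the log2 scale and higher in *Cd53* by 0.26. The *Cd37* value includes the mixture of types, since 422 of 1306 cells in ConA+TCDD were B-like. Within B-like cells *Cd37* was 546 CPM (516 to 578) in ConA+TCDD against 663 CPM in ConA+FICZ. The comparisons with ConA+Veh share that library, so they are not independent of each other.

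The lower *Cd52* level of ConA+TCDD went with more cells that held none. To count such cells at equal depth, the UMIs of every cell were drawn down at random to 1000, and between 89 and 119 shallower lymphocyte-like cells per library were left out. No *Cd52* UMI was then left in 364 of 1638 cells in Naïve (22.2%, 20.2 to 24.3), 379 of 1775 in ConA+Veh (21.4%, 19.5 to 23.3), 555 of 1217 in ConA+TCDD (45.6%, 42.8 to 48.5) and 384 of 1457 in ConA+FICZ (26.4%, 24.1 to 28.7). Without thinning, 75.7% of the ConA+TCDD cells and 90.7 to 91.7% of the cells in the other libraries had a *Cd52* UMI. The ConA+TCDD library stood apart from the other 3. Of these, ConA+FICZ had the highest share at 1000 UMIs, with an interval that overlapped that of Naïve and lay above that of ConA+Veh. At the other end of the distribution, 106 of the 1217 cells in ConA+TCDD and 236 of the 1775 in ConA+Veh still held 5 or more. The variance of *Cd52* UMIs over their mean, which is 1 for cells that differ by counting alone, was 2.43 in ConA+TCDD and 1.62 to 1.89 in the other libraries, so its cells were the most unequal over all lymphocyte-like cells. By type this held for B-like (2.46) and T-like cells (2.29) but not for NK-like cells, with 1.94 against 2.12 in Naïve, nor for CD4 T-like cells, where ConA+TCDD had the lowest value (1.16, with at least 1.91 in the others).

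After thinning, the excess of cells without *Cd52* was seen in all 3 lymphocyte-like types. In B-like cells their share was 21.1% in Naïve, 20.6% in ConA+Veh, 41.4% in ConA+TCDD and 25.2% in ConA+FICZ. In T-like cells it was 26.8, 26.2, 55.2 and 32.6%, and in NK-like cells 14.3, 9.96, 26.03 and 13.98%. Among T-like cells with neither or both of *Cd4* and *Cd8* it was 21.2, 22.8, 64.3 and 29.7%. As the background, at the same depth 5 of 54 endothelial-like cells in ConA+Veh (9.26%), 5 of 22 erythroid-like cells in ConA+Veh (22.7%, 7.82 to 45.4) and 0 of 37 erythroid-like cells in ConA+TCDD had a *Cd52* UMI. The last allows a share of up to 8.11%. Their median depths were 2619.5, 1329.5 and 1593 UMIs. The values in ConA+Veh lay above those in ConA+TCDD, although the intervals meet. The part of this background in the difference of the lymphocyte-like cells was not tested. The ConA+TCDD library held no hepatocyte-like cell and only 6 endothelial-like cells.

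**Figure D2:**
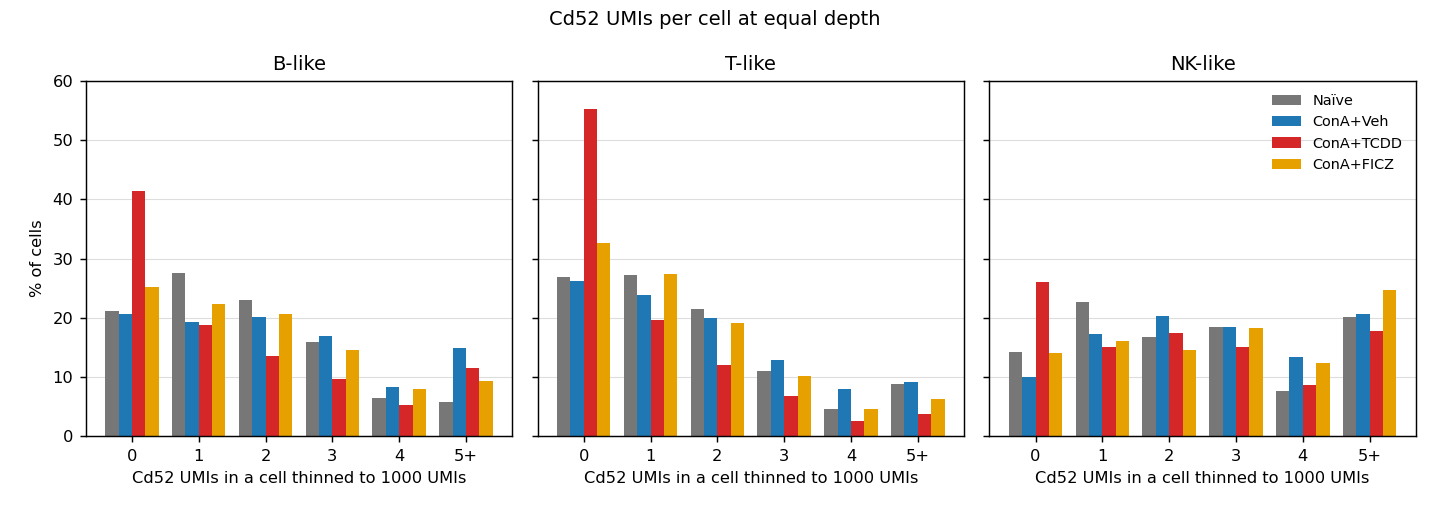
Share of cells (y axis, %) with 0, 1, 2, 3, 4 and 5 or more *Cd52* UMIs (x axis) after each cell was thinned to 1000 UMIs, in B-like, T-like and NK-like cells of the 4 libraries (colours). The bar at 0 is tallest in ConA+TCDD for each type (41.4, 55.2 and 26.03%).

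The cells were then split in each library by whether a *Cd52* UMI was left after thinning, and the other genes were compared on all UMIs of the cells. In ConA+TCDD lymphocyte-like cells *Cd37* was 111 CPM in the 555 cells without and 243 CPM in the 662 cells with *Cd52*, a log2 ratio of -1.13 (-1.29 to -0.97). *Cd48* was 64.5 against 93.7 CPM (-0.54, from -0.77 to -0.31) and *Cd47* 208 against 276 CPM (-0.41, from -0.54 to -0.28). *Cd53* went the other way, 245 against 179 CPM (0.46, from 0.32 to 0.59). The same split of ConA+Veh gave -0.49 for *Cd37*, 0.03 (-0.16 to 0.22) for *Cd48*, 0.06 (-0.04 to 0.16) for *Cd47* and -0.07 (-0.21 to 0.07) for *Cd53*. ConA+FICZ was between the 2, with -0.86, -0.25, -0.07 and 0.15, and in Naïve *Cd53* gave -0.16. Thus over all lymphocyte-like cells *Cd37* was lower in the cells without *Cd52* in every library. *Cd47* was lower beyond counting error in ConA+TCDD alone of the 4, whose difference from the others was not tested. The mixture of types differed too. T-like cells, lower in *Cd37* and *Cd47* than B-like cells, were 339 of the 555 without and 275 of the 662 with *Cd52* in ConA+TCDD. In ConA+Veh they were 193 of 379 and 544 of 1396. With equal weights for the 3 types, ConA+TCDD gave -0.97 for *Cd37* and -0.39 for *Cd47*. Of 6699 genes with at least 100 UMIs in ConA+TCDD, 1.79% were lower and 1.04% higher at least 2-fold in this split, among them 1 of the 4 genes, *Cd37*, at rank 80 from the lowest. *Cd48* was at rank 632, *Cd47* at rank 1013 and *Cd53* at rank 5849.

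Within types, the ConA+TCDD split gave log2 ratios for *Cd37* of -1.20 in B-like, -0.36 in T-like and -1.34 in NK-like cells. *Cd53* was higher in T-like (0.76, from 0.58 to 0.93) and NK-like cells (0.35, from 0.02 to 0.69), and B-like cells gave 0.08 (-0.21 to 0.35). *Cd48* was lower in T-like (-0.47) and NK-like cells (-1.11), and its interval in B-like cells included 0 (-0.34, from -0.90 to 0.19). *Cd47* was lower in T-like (-0.32) and NK-like cells (-0.69, from -1.05 to -0.34), and B-like cells gave -0.17 (-0.40 to 0.06).

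Over all genes, the split of ConA+TCDD lymphocyte-like cells was led at the low end by *Ncr1* (log2 ratio -2.38), *Cd7* (-2.26), *Pld4* (-2.06), *Tyrobp* (-2.05) and *Klra7* (-1.93), of which *Ncr1*, *Tyrobp* and *Klra7* are genes of NK cells. NK-like cells made up 57 of the 555 cells without and 162 of the 662 cells with *Cd52*. At the high end were the metallothioneins *Mt2* (3.94) and *Mt1* (2.94) and the globin genes *Hbb-bs* (3.28), *Hba-a1* (3.19) and *Hbb-bt* (3.03). Hemoglobin RNA summed to 402 CPM in the cells without and 43.4 CPM in those with *Cd52*, but the median cell of both groups held none, and 2 cells had 50 or more UMIs of it. The cold-inducible RNA-binding proteins *Rbm3* (1372 against 563 CPM) and *Cirbp* (83.5 against 42.0 CPM) were also higher. In ConA+Veh the same split gave log2 ratios of -0.11 for *Rbm3* and -0.04 for *Cirbp*. How far hemoglobin RNA moved with the 4 surface genes was not tested in this split.

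A cell thinned to 1000 UMIs can lose its *Cd52* by chance, so the split was repeated in cells deep enough to show it. T-like cells with at least 5000 UMIs were used, a limit set after the data had been seen. None of 478 such cells in ConA+Veh was without a *Cd52* UMI, which allows a share of up to 0.628%, against 3 of 67 in Naïve, 76 of 412 in ConA+TCDD (18.4%) and 17 of 374 in ConA+FICZ (4.55%). In these 76 cells *Cd48* had 10 UMIs in all, 19.3 CPM (9.27 to 35.6), against 84.8 CPM in the 336 cells with *Cd52*, a log2 ratio of -2.13 (-3.20 to -1.24). *Cd37* was 25.1 against 62.4 CPM (-1.31, from -2.24 to -0.52) and *Cd47* 112 against 186 CPM (-0.73, from -1.14 to -0.35). *Cd53* was 336 against 135 CPM (1.32, from 1.07 to 1.56). The median log2 ratio of all 5048 genes in this split was -0.22, and 21.3% of them were lower and 4.24% higher at least 2-fold, so the lower values of *Cd48* and *Cd37* stand among many.

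The 17 cells of ConA+FICZ without *Cd52* showed the same directions, with wider intervals. *Cd48* was 20.6 against 98.6 CPM in the 357 cells with *Cd52* (3 UMIs, log2 ratio -2.26, from -4.54 to -0.71), *Cd37* 41.2 against 91.6 CPM (-1.15, from -2.61 to -0.02), *Cd47* 103 against 192 CPM (-0.90, from -1.74 to -0.17) and *Cd53* 529 against 136 CPM (1.96, from 1.60 to 2.30). There, 24.5% of 5388 genes were lower and 5.86% higher at least 2-fold. In single cells thinned to 5000 UMIs, the share with a *Cd48* UMI in ConA+TCDD was 10.5% of the cells without and 27.98% of those with *Cd52*. For *Cd37* the shares were 13.2 and 28.3%, for *Cd47* 27.6 and 57.4% and for *Cd53* 63.2 and 50%.

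The deep cells without *Cd52* differed in other ways too. In ConA+TCDD the 76 cells without it were 22 CD8, 2 CD4 and 52 other T-like cells. The 336 cells with it were 181 CD8, 60 CD4 and 95 other T-like cells. In ConA+TCDD their median depth was 6181.5 UMIs against 11959 in the cells with *Cd52*, and ribosomal protein genes made up 41.2 against 36.6% of their UMIs. Cycling cells, with at least 2 of 8 genes of cell division, were 2.63% against 61.6%. Hemoglobin RNA was 2506 against 30.4 CPM, carried by 2 cells with 50 or more such UMIs, and without these cells the log2 ratios were -2.09 for *Cd48*, -1.27 for *Cd37*, -0.85 for *Cd47* and 1.29 for *Cd53*. Without cycling cells *Cd53* gave a log2 ratio of 0.67, which is 1.32 with them, and the other 3 genes stayed within their intervals. *Cd53* gave 0.98 in T-like cells with no *Cd4* or *Cd8* UMI and 1.03 in CD8 T-like cells taken alone. *Cd37* gave -1.95 and -1.21 in the same cells. With totals that left out ribosomal protein and mitochondrial genes *Cd37* gave -1.17, within its interval. The part of depth in these differences was not tested, nor that of ribosomal protein genes beyond this change of totals.

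The deep T-like cells were also grouped by their number of *Cd52* UMIs. From 76 cells with 0 through 36 with 1, 17 with 2, 29 with 3 to 5 and 44 with 6 to 10 to 210 with 11 or more, *Cd53* went from 336 through 276, 275, 211 and 166 to 114 CPM. *Cd48* went from 19.3 through 28.4, 63.6, 82.0 and 61.1 to 91.4 CPM. *Cd47* (112, 158, 91.8, 215, 245 and 183 CPM) and *Cd37* (25.1, 40.6, 28.2, 39.0, 83.2 and 64.3 CPM) had no steady course, so only *Cd53* ran one way through all bins. In ConA+Veh the cells with few *Cd52* UMIs also had more *Cd53*, with 369 CPM in 7 cells with 1 and 145 CPM in 371 cells with 11 or more. The same 7 cells of ConA+Veh held 717 CPM (493 to 1006) of *Cd47*, against 230 CPM in the 371 cells. They held 217 CPM (104 to 399) of *Cd48* against 97.9 CPM (90.6 to 106), with intervals that meet. In ConA+TCDD the 36 cells with 1 *Cd52* UMI held 28.4 CPM of *Cd48* and 158 CPM of *Cd47*. The bins with 1 and 2 UMIs in ConA+Veh and 2 in ConA+TCDD had fewer than 20 cells. The share of cycling cells went along these bins in ConA+TCDD from 2.63 to 76.7% and was 63.6 to 85.7% in all bins of ConA+Veh. The median depth went from 6181.5 UMIs at 0 to 17689.5 at 11 or more in ConA+TCDD. Mitochondrial share was not compared by bin. In the split at 1000 UMIs, its median in ConA+Veh T-like cells was 4.604% without and 2.654% with *Cd52*. In ConA+TCDD T-like cells it was 2.727 and 2.484%, so the cells low in *Cd52* may not be alike in the 2 libraries. The part of cycling, depth and mitochondrial share in these values was not tested.

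**Figure D3:**
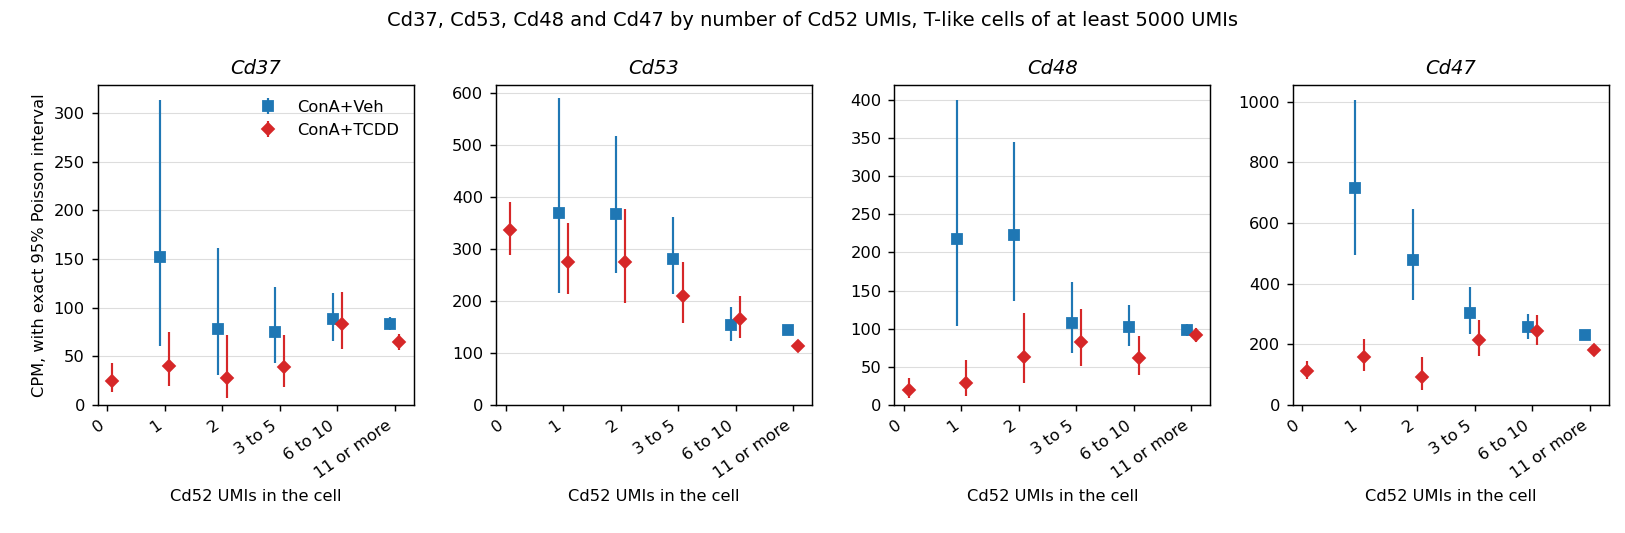
Level of the other 4 genes (CPM, y axis from 0, exact 95% Poisson intervals) by the number of *Cd52* UMIs in a cell (x axis) in T-like cells with at least 5000 UMIs, for ConA+Veh (blue) and ConA+TCDD (red). ConA+Veh has no point at 0, *Cd53* runs down in both libraries, and *Cd48* and *Cd47* part at 1 UMI.

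All 6482 lymphocyte-like cells were clustered on 2000 other variable genes, which gave 24 clusters. In 3 of them *Cd52* was under 438 CPM, a limit derived from the median cluster's 1752 CPM after the data had been seen. The highest of these 3, L21, had 368 CPM and the lowest of the others, L12, had 730 CPM. L9 was almost all T-like, L17 B-like and L21 mostly NK-like cells. Together they held 373 ConA+TCDD, 45 ConA+FICZ, 22 ConA+Veh and 10 Naïve cells, and with 1 library per group, a cluster mostly of 1 library may be that library and not a type. Among the genes that led them were *Mt2*, *Mt1* and *Hbb-bs* in L9, *Cd74* and *H2-Aa* in L17 and *Gzma* and *Ccl5* in L21. The genes named for L17 also led other B-like clusters such as L1. Those for L21 also led other NK-like clusters such as L3, and *Mt1* and *Mt2* were among the leads of L14. They are thus not particular to these clusters.

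In ConA+TCDD, *Cd37* and *Cd48* were lower and *Cd53* was higher inside than outside these clusters in B-like, T-like and NK-like cells. Clusters differ in many genes by their making, so these values are a description. At least 2-fold lower inside were 15.6% of all genes in B-like, 20.6% in T-like and 17.7% in NK-like cells, and 5.52, 3.73 and 3.08% were higher. *Cd37* was 169 CPM in the 104 B-like cells inside and 622 CPM in the 318 outside (log2 ratio -1.88, from -2.27 to -1.51), 24.0 against 73.2 CPM in T-like cells (-1.61) and 112 against 325 CPM in NK-like cells (-1.54). *Cd48* was 24.5 against 71.8 CPM in B-like (-1.55, from -2.71 to -0.58), 27.3 against 93.6 CPM in T-like (-1.78) and 61.6 against 171 CPM in NK-like cells (-1.48). *Cd53* was 264 against 203 CPM in B-like (0.38, from 0.04 to 0.70), 363 against 132 CPM in T-like (1.46) and 717 against 353 CPM in NK-like cells (1.02). *Cd47* differed least, with 261 against 336 CPM in B-like (-0.36, from -0.69 to -0.05), 143 against 204 CPM in T-like (-0.51) and 454 against 555 CPM in NK-like cells (-0.29, from -0.66 to 0.06). *Rbm3* was 2469 CPM inside and 508 CPM outside over all lymphocyte-like cells. At 1000 UMIs, 83.2% of the 370 cells inside and 29.2% of the 847 cells outside had no *Cd52* UMI. On all UMIs, *Cd52* inside was 316 CPM in B-like, 111 CPM in T-like and 375 CPM in NK-like cells.

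The 24 T-like cells of ConA+FICZ in these clusters gave 455 against 142 CPM of *Cd53*, 42.3 against 99.1 CPM of *Cd48* and 32.9 against 102 CPM of *Cd37*, with intervals apart from each other. *Cd47* was 188 against 194 CPM there and did not differ beyond counting error. In the 12 T-like cells of ConA+Veh, *Cd53* was 521 CPM (368 to 715) against 169 CPM, while *Cd48* (68.5 against 111 CPM) and *Cd47* (288 against 258 CPM) had wide, overlapping intervals.

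The remaining cells were compared between ConA+TCDD and ConA+Veh. Since the clusters were chosen for low *Cd52* and hold mostly ConA+TCDD cells, a smaller difference in *Cd52* follows from the choice. Its log2 ratio was then -0.25 (-0.28 to -0.22) over lymphocyte-like cells, -0.14 in B-like, -0.30 in T-like and -0.11 in NK-like cells, where it had been -0.51, -0.35, -0.57 and -0.41. *Cd48* was -0.09 (-0.22 to 0.04), and only T-like cells still had less (-0.24, from -0.40 to -0.08). *Cd53* turned from 0.08 to -0.21 (-0.31 to -0.12). *Cd37* gave -0.58 over all of these cells, which includes the mixture of types, and -0.25 in B-like, -0.46 in T-like and -0.27 in NK-like cells. *Cd47* gave -0.33 over all, -0.29 in B-like, -0.34 in T-like and -0.09 (-0.29 to 0.10) in NK-like cells. The share of cells without *Cd52* was 29.2% (26.1 to 32.4) in ConA+TCDD and 20.7% (18.8 to 22.7) in ConA+Veh outside the clusters, and in NK-like cells it was 8.23 and 9.34%. In the 15 clusters with at least 20 cells of both libraries, the log2 ratio of *Cd52* ran from -0.52 to 0.22 with a median of -0.17, and its interval was below 0 in 9 and above 0 in 0 of them. For *Cd47* the interval was below 0 in 7 and for *Cd37* in 5 of them, and above 0 in none. For *Cd53* it was below 0 in 3 and above 0 in 1, and for *Cd48* below 0 in 1 and above 0 in 1. All of these clusters compare the same libraries, so they do not repeat the result. The intervals cover counting error only and are narrower in clusters with more UMIs. The share of all genes with such intervals was not counted, so the counts are a description.

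**Figure D4:**
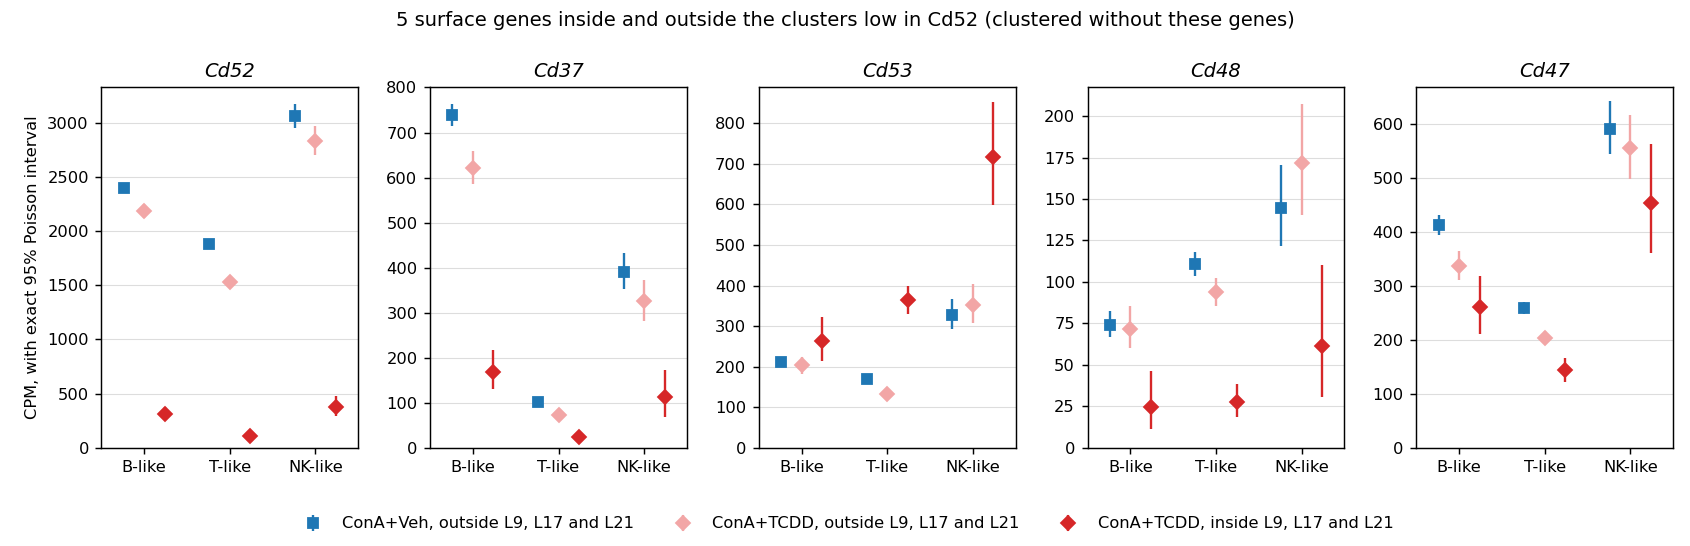
Level of the 5 genes (CPM, y axis from 0, exact 95% Poisson intervals) in B-like, T-like and NK-like cells (x axis) of ConA+Veh outside the clusters L9, L17 and L21 (blue), of ConA+TCDD outside them (light red) and of ConA+TCDD inside them (red). Inside the clusters *Cd52*, *Cd37* and *Cd48* lie below both other points in every type and *Cd53* above.

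The other genes of the same families were described by lists. In ConA+TCDD against ConA+Veh over lymphocyte-like cells, 0 of 13 tetraspanins, 2 of 14 GPI-anchored proteins, 0 of 11 genes of the CD2 and SLAM family, 0 of 6 genes of CD47 and its partners and 0 of 18 pan-leukocyte membrane and cortex genes were past 2-fold. Of all 10038 genes 2.06% were lower and 0.538% higher by that much. The 2 GPI-anchored genes were *Ly6d* (216 against 447 CPM, log2 ratio -1.05), a B cell gene that was also among the B-like markers, and *Cd14* (3 against 59 UMIs, -3.66, from -5.98 to -2.05), a gene of monocytes. The pan-leukocyte list had a median log2 ratio of -0.35 and the GPI-anchored list, with *Cd52* in it, of -0.33, where all genes had -0.02. These values mix the types, since 847 of 1894 cells in ConA+Veh and 422 of 1306 in ConA+TCDD were B-like. Within types, 0 of 11 GPI-anchored genes in B-like, 1 of 12 in T-like and 0 of 8 in NK-like cells were at least 2-fold lower. In the same order, 1.81, 1.12 and 1.33% of all genes were lower by that much.

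In ConA+Veh against Naïve more of them were past 2-fold, as were more of all genes (16.2% lower and 9.12% higher). Of the tetraspanins, *Cd37*, *Cd81* (-1.13), *Cd151* (-1.46), *Tspan14* (-1.28) and *Tspan32* (-1.41) were lower and *Tspan4* (2.86) was higher at least 2-fold. Of the GPI-anchored proteins, *Ly6a* (1.77), *Bst2* (1.49), *Sema7a* (2.02) and *Cd14* (4.29, from 1.75 to 9.61) were higher and *Cd55* (-3.21), a brake on complement, was lower. *Cd84* (-1.34) and *Evl* (-1.14) were lower as well. *Ly6a* and *Bst2* are known targets of interferon. In ConA+FICZ against ConA+Veh only *Cd63* (-1.15) and *Cd14* (-1.89) of all 5 lists were past 2-fold, beside 1.57% of all genes lower and 0.915% higher. In the split at 1000 UMIs of ConA+TCDD cells, *Ly6c2* (-1.48), *Cd55* (-1.03) and *Evl* (-1.03) joined *Cd37*, beside 1.79% of all genes lower and 1.04% higher.

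In the deep ConA+TCDD T-like cells the lists parted. The genes named here were chosen after their values had been seen. Of 18 pan-leukocyte genes 10 were lower at least 2-fold in the cells without *Cd52* and 0 were higher, with a median log2 ratio of -1.10 against -0.22 for all genes, of which 21.3% were lower and 4.24% higher by that much. They included *Coro1a* (180 against 970 CPM, -2.43), *Itgal* (-2.14), *Itgb7* (-2.02) and *Itgb2* (-1.70), which encode integrins of leukocyte adhesion, and the P-selectin ligand *Selplg* (-1.74). *Ptprc* was 251 against 374 CPM (-0.57). Of 9 GPI-anchored genes other than *Cd52*, which defined the split, 6 were lower, among them *Ly6e* (-1.56), *Ly6c2* (-2.09) and *Bst2* (-1.85). *Cd24a* (1.17) was higher, and *Thy1*, the classic GPI-anchored marker of T cells, was 296 against 524 CPM (-0.82). Of 9 genes of the CD2 and SLAM family *Cd48*, *Slamf6* (-2.24) and *Ly9* (-1.89) were lower and none was higher. Of 5 genes of CD47 and its partners the phosphatase *Ptpn6*, which acts downstream of SIRPα, was lower (23.2 against 187 CPM, -3.01) and the integrin subunit *Itgav* (1.04) higher.

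Of the 10 tetraspanins, *Cd53*, *Tspan13* (1.37), *Tspan3* (1.36) and *Cd9* (1.23) were higher and *Cd37* and *Tspan4* (-1.74) lower at least 2-fold. The list median was 0.26. Of all genes 21.3% were lower and 4.24% higher by that much, so the 2 lower tetraspanins are near the share of all genes. In the 17 deep ConA+FICZ cells without *Cd52*, 14 of the 18 pan-leukocyte genes and 7 of the 9 GPI-anchored genes other than *Cd52* were lower, beside 24.5% of all genes. Of the 10 tetraspanins 4 were lower and 2 higher there, with a median of -0.18, where all genes had -0.31 and 5.86% of them were higher. The higher ones were again *Cd53* (1.96) and *Tspan3* (1.39). *Tspan13* was 20.6 against 54.3 CPM there, a level that is only 3 UMIs in these 17 cells.

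**Figure D5:**
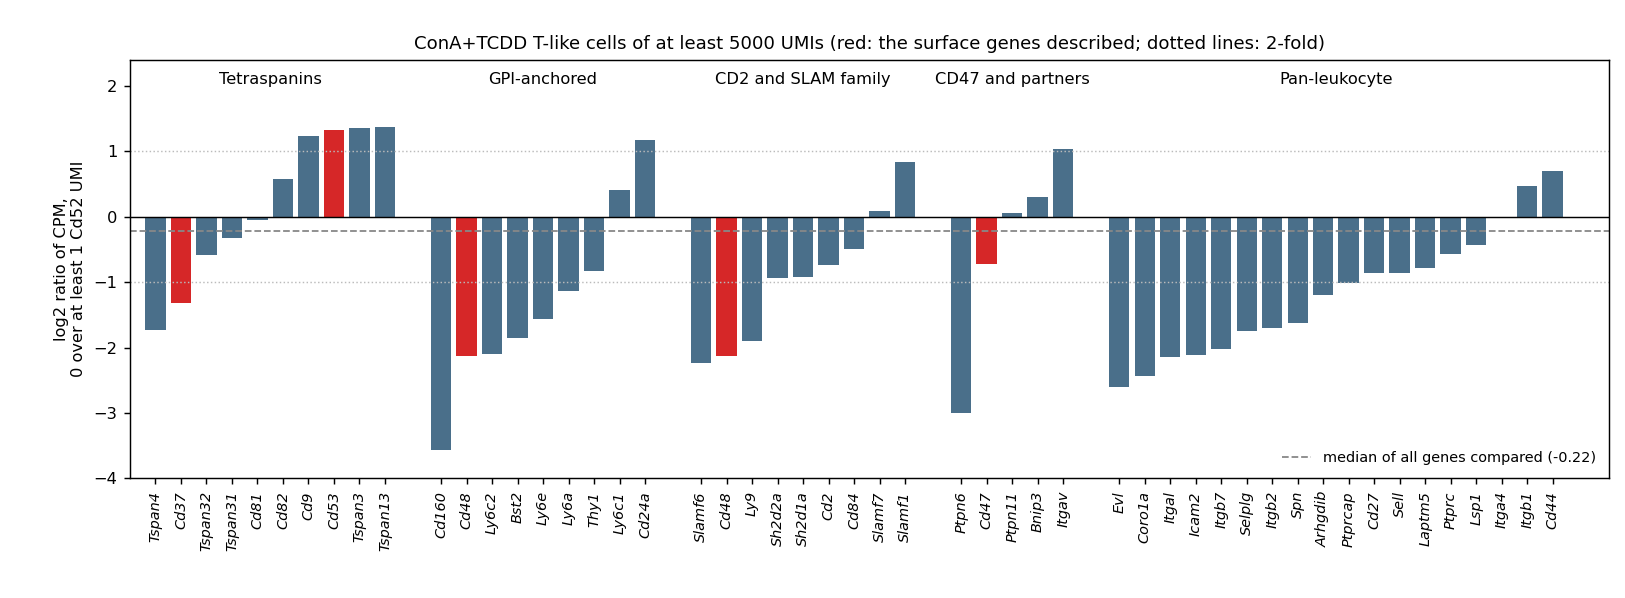
Log2 ratio of CPM (y axis) between ConA+TCDD T-like cells of at least 5000 UMIs with no *Cd52* UMI and those with at least 1, for the genes of 5 lists (x axis, bars sorted within a list) that had at least 100 UMIs, with *Cd52* left out. Red bars are *Cd37*, *Cd53*, *Cd48* and *Cd47*, the dashed line is the median of all genes (-0.22), and most pan-leukocyte bars lie below it while tetraspanins lie on both sides.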

How the data were processed

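Per the labels and file headers of all 4 samples, the authors made 10x 5′ libraries and processed them with Cell Ranger 3.0.2 against mm10, and the deposited values are raw UMI counts per gene and cell. All columns were used. Library totals ran from 5952445 to 19252211 UMIs. The 5 genes, the marker and family lists and the limits were chosen with earlier results of these data known. Counts were summed per library and gated cell type and divided by that type's total. Intervals are exact 95% Poisson (CPM), exact Clopper-Pearson (shares) and exact conditional binomial (ratios), and a count of 0 allows 3. No count test was run, since each condition had 1 library. No doublet caller was run, and cells that led in no list were left out. Ratios needed 50 UMIs, splits 100. Clusters used 2000 genes without the 5, 30 components, 15 neighbours and Leiden at resolution 1. Named were the 5 genes, list genes past 2-fold, the 5 genes most and 3 least like *Cd52* in pattern (at least 2000 UMIs), the 5 at each end of the split at 1000 UMIs (without immunoglobulin and T cell receptor segments), *Rbm3* and *Cirbp*. Alternatives changed the gate, cell filter, depth, weighting, denominator and clustering. The ratio between libraries and its interval were tested on simulated counts without spread between cells, and the thinned totals were checked on some of the real cells. Gates, splits and clusters were not tested in this way. The work ran in Python 3.11.15 with leidenalg 0.10.2 and scikit-learn 1.9.0 for clusters, scipy 1.17.1 for intervals and pandas 2.3.3 with numpy 2.4.6 for tables.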

Additional observations from a re-analysis of the deposited data

Results flagged for a closer look

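In NK-like cells, the log2 ratio of *Cd47* between cells without and with a *Cd52* UMI at 1000 UMIs was -0.69 (366 against 590 CPM, 57 and 162 cells) in ConA+TCDD and 0.39 (754 against 576 CPM, 26 and 235 cells) in ConA+Veh. The opposite directions of the 2 libraries drew attention to this value. Cycling cells were 38.46% of the NK-like cells without and 17.02% of those with *Cd52* in ConA+Veh, and 10.53 and 12.96% in ConA+TCDD. Median mitochondrial share was 2.718 and 2.030% in ConA+Veh and 2.258 and 2.360% in ConA+TCDD. The part of these in the opposite directions was not tested. With 1 library each, the difference between the libraries was not tested either.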

How the results depend on the processing

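Of 129 alternatives to 14 values, 92 moved a value by less than its counting interval, 37 moved it by more and 0 reversed a direction whose interval left 0 out. For ConA+TCDD over ConA+Veh in lymphocyte-like cells, taking the mean over cells gave log2 ratios of -0.59 for *Cd52* and -0.33 for *Cd47*, and leaving out the depth correction gave -0.61 for *Cd52*, -0.88 for *Cd37*, -0.015 for *Cd53* and -0.50 for *Cd47*. Thinning gave -0.66 for *Cd52*, -0.0081 for *Cd53*, -0.41 for *Cd48* and -0.33 for *Cd47*, and equal weights for the 3 types gave -0.45 for *Cd52*, -0.53 for *Cd37* and -0.31 for *Cd47*. With only those cells in which 1 list alone had at least 2 markers (sole-list cells) *Cd52* gave -0.59, and with the cells of no gate added *Cd52* gave -0.58 and *Cd47* -0.30. The share of ConA+TCDD cells without *Cd52* was 61.5% at 500 UMIs, 33.9% at 2000, 24.3% without thinning, 49.0% with sole-list cells and 50.9% with the cells of no gate. In the split at 1000 UMIs, *Cd37* gave -0.87 at 500 UMIs, -0.85 with all UMIs, -1.40 as a mean over cells and -1.30 with sole-list cells. *Cd53* gave 0.72 at 2000 UMIs, 0.95 with all UMIs and 0.25 as a mean over cells. *Cd48* gave -1.14 at 2000 UMIs and -1.29 with all UMIs. *Cd47* gave -0.19 at 500 UMIs, -0.27 with all UMIs and -0.59 as a mean over cells. In the deep T-like cells, whose alternatives were chosen after seeing the data, *Cd53* gave 0.67 without cycling cells, 0.99 as a mean over cells, 0.98 in cells without *Cd4* and *Cd8* and 1.03 in CD8 T-like cells. The cause of these changes was not tested. At clustering resolution 0.5 the clusters low in *Cd52* were 2 and held 295 ConA+TCDD cells. The log2 ratio inside over outside them in ConA+TCDD lymphocyte-like cells was then -0.75 for *Cd47* and 0.92 for *Cd53*. At resolution 1 these were -0.41 (-0.57 to -0.24) and 1.18 (1.04 to 1.32), so both moved out of their intervals. *Cd37* (-1.92) and *Cd48* (-1.79) stayed within theirs. At resolution 2 the low clusters held 373 ConA+TCDD cells. No paired analysis was possible because each condition had 1 library. For the same reason animal, library and condition cannot be told apart, and fewer expressing cells and less RNA per cell were separated only as far as thinning allows.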
